A study of Mus musculus with 12 samples.

Results

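Stat3, Stat4, Stat5a, Stat5b, Stat6, Socs1, Socs2, Socs3 and Cish encode transcription factors of the STAT family and feedback inhibitors of the SOCS family, which act downstream of cytokine receptors. They were taken as a list of named genes from the table of array intensities, with the probe set of highest mean kept for each gene among probe sets that carry 1 gene symbol. They make up 9 of the 19938 genes with a value, and all 9 were among the 14953 genes tested after dim genes were left out. The study compared mature conventional dendritic cells of the cDC1 and cDC2 branches, sorted from the spleens of wild-type (WT), Flt3 knockout (Flt3 KO) and Flt3L knockout (Flt3L KO) mice. Flt3 encodes a cytokine receptor with its own tyrosine kinase, on which dendritic cells depend as they form, and Flt3L encodes the ligand. With 3 genotypes and both cell types there were 6 groups, and 2 arrays, called biological replicates in the labels, were run for each. All mice were at steady state, with no treatment named, and every spleen was digested with collagenase B and DNase 1 before the sort. The sources used here do not give the knockout alleles, the strain, the age and sex of the mice, the sort gates or the number of mice per array. The p-values therefore measure the spread between these arrays, whose small number limits precision.

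Cytokine receptors of the class that lacks its own kinase signal through JAK kinases, which phosphorylate STAT proteins. Phosphorylated STATs pair, enter the nucleus and bind DNA, and among the genes they induce are those of the SOCS family and Cish, whose products in turn restrain the receptor and its kinase. In dendritic cells STAT3 is known for its role downstream of Flt3 and IL-10, STAT5 for signalling by GM-CSF, STAT6 for signalling by IL-4 and IL-13, and STAT4 for signalling by IL-12. Arrays measure transcripts, not phosphorylation, so the values below are RNA levels of pathway components and not pathway activity.

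The intensity of Flt3 was between 350.7 and 371.4 on the 4 Flt3 KO arrays and between 1637 and 2456 on the other 8 arrays. The 9 genes of the cDC1 marker list were all higher in cDC1 and the 9 genes of the cDC2 list all lower, so the markers followed the labelled cell types. The summed intensity of the cDC1 list was 19630 to 21840 on cDC1 arrays and 5546 to 6027 on cDC2 arrays. The median intensity of an array lay between 58.96 and 62.97. Replicate 1 of WT cDC1 stood apart, with a lower quartile of 25.73 against 23.31 to 24.31 on the other 11 arrays. The SD of the log2 difference between replicates was 0.21 in WT cDC1 and 0.13 to 0.15 in the other groups. In bulk RNA, fewer cells of a type and less RNA per cell cannot be told apart.

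Every STAT gene of the list was lower in cDC1 than in cDC2, in each of the 3 genotypes. The difference was large for Stat4 and below 1.7-fold for the others. By its brighter probe set, Socs3 was lower in cDC1 as well in both knockouts, while its dimmer probe set did not separate the cell types. Socs2 was higher in cDC1 in WT and Flt3 KO, and Socs1 and Cish were close in both cell types. On the arrays themselves, the 6 cDC1 arrays and the 6 cDC2 arrays did not overlap for 6 of the 9 genes, all with cDC2 higher. These were Stat3, Stat4, Stat5a, Stat5b, Stat6 and, by its brighter probe set, Socs3. Over all 14953 tested genes, 32.8% did not overlap in this way and 15.1% did not overlap with cDC1 lower. Counting genes with an adjusted p under 0.05 in limma after Benjamini-Hochberg adjustment, 6 of the 9 differed in WT (1 higher and 5 lower in cDC1), where 39.4% of all tested genes differed, 21.0% higher and 18.4% lower. In Flt3 KO 7 differed (1 higher and 6 lower) against 35.5% of all genes, made up of 19.1% higher and 16.4% lower. In Flt3L KO 6 differed (0 higher and 6 lower) against 34.8%, with 15.9% lower. The median log2 difference of the 9 genes, cDC1 minus cDC2, was -0.38 in WT, -0.35 in Flt3 KO and -0.35 in Flt3L KO, and that of all genes was 0.07, 0.00 and 0.01.

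**Figure D1:**
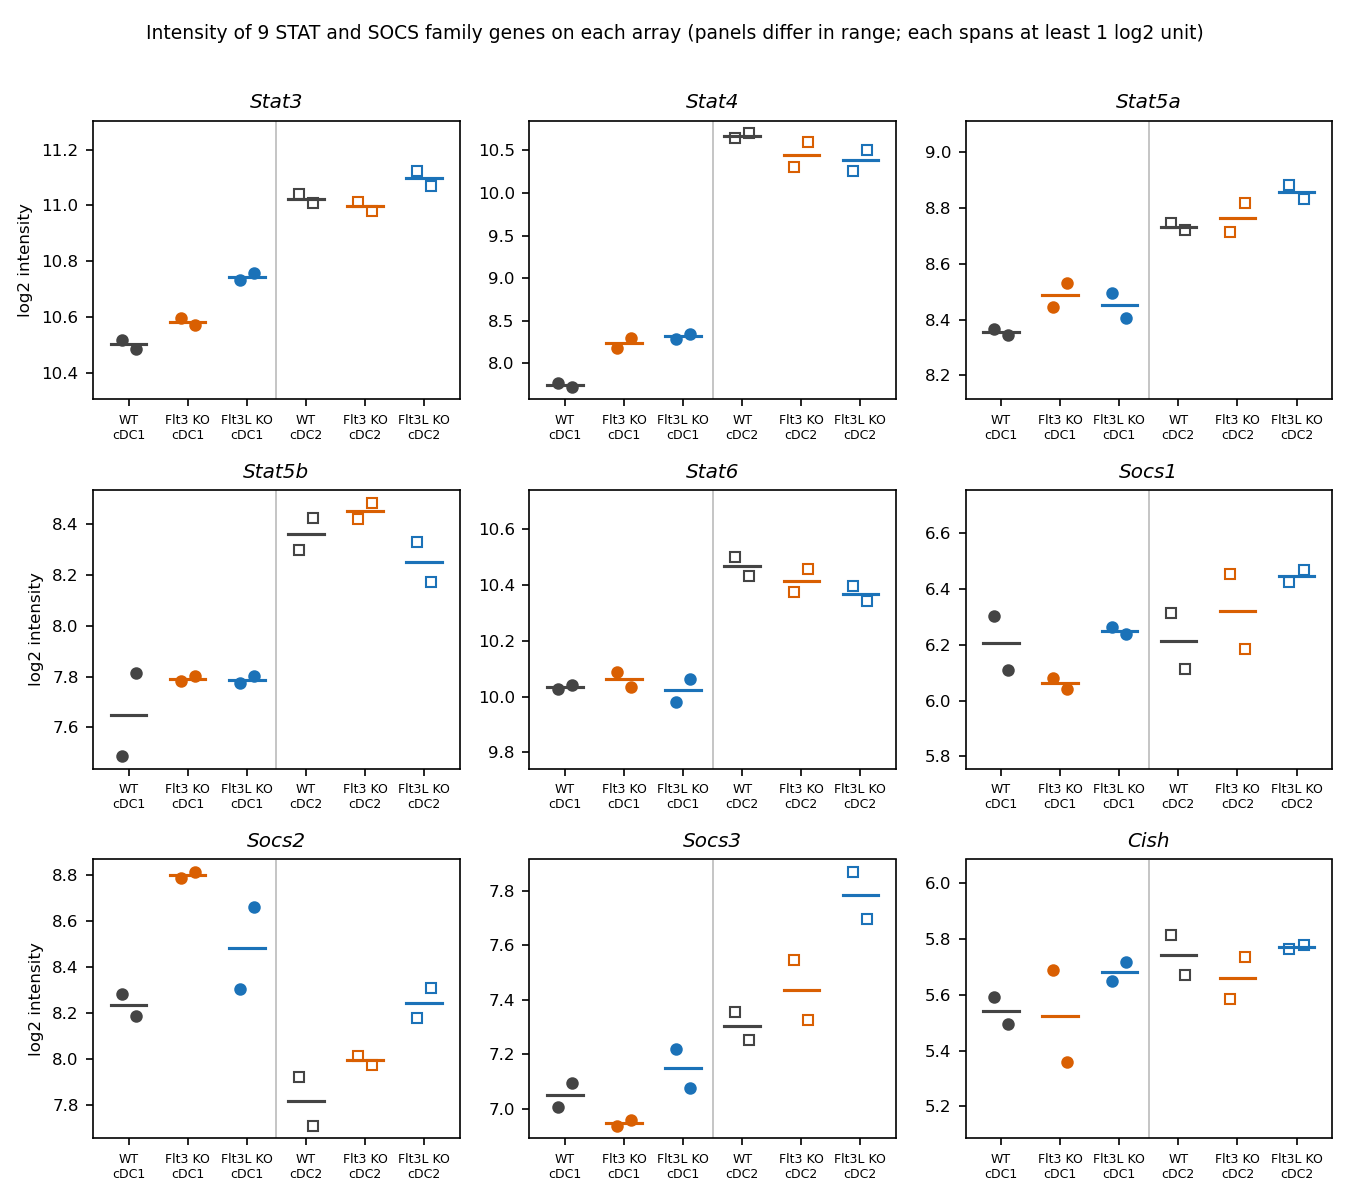
Log2 intensity of each of the 9 genes on each of the 12 arrays, 1 panel per gene, with cDC1 as filled circles and cDC2 as open squares; short lines are group means and panels differ in range. The 6 cDC1 arrays lie below the 6 cDC2 arrays for the 5 STAT genes and for the brighter probe set of Socs3. The cell types overlap for Socs1, Socs2 and Cish.

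Stat4, the factor that IL-12 receptors act through, differed most. Its intensities were 219 and 212 in WT cDC1, 291 and 315 in Flt3 KO cDC1, and 311 and 326 in Flt3L KO cDC1. In cDC2 they were 1602 and 1665 in WT, 1264 and 1545 in Flt3 KO, and 1224 and 1453 in Flt3L KO. Every cDC2 array was thus several times brighter than every cDC1 array, and the WT arrays lay outside both knockouts in both cell types, lowest in cDC1 and highest in cDC2. Stat4 was 7.59-fold lower in cDC1 than in cDC2 in WT (log2 difference -2.92 ± 0.11 SE, limma adjusted p = 2.48e-10). It was 4.62-fold lower in Flt3 KO and 4.19-fold lower in Flt3L KO (limma adjusted p = 3.46e-09 and 6.9e-09). T cells and NK cells also express Stat4, so their markers were measured. Of the T cell list, 4 of 6 genes had a value, and their summed intensity was 324.2 to 365.8 on cDC1 arrays and 362.1 to 423.7 on cDC2 arrays. The CD3 chain genes had mean intensities close to equal in cDC1 and cDC2, at 73.81 and 70.72 for Cd3e, 31.03 and 31.29 for Cd3d, and 15.97 and 15.79 for Cd3g. The other gene of the list, Cd5, ran the same way as Stat4, with means of 219.2 in cDC1 and 272.5 in cDC2, and was 1.24-fold lower in cDC1 on average (limma adjusted p = 0.000102) and called in WT and Flt3L KO. The 5 genes of the NK cell list summed to between 146.7 and 178.8 in all 6 groups, and Ncr1, their defining receptor, stayed at or below 19.65. The part of Cd5 and of T cells in the Stat4 difference was not tested.

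The RefSeq promoter table for GRCm38.p6 lists a pair of starts for Stat4 on chromosome 1. The 250 bases before each are shown because Stat4 carries the widest difference between the cell types; both are on the plus strand, at chr1:51986898-51987147 and chr1:52007990-52008239, written 5′ to 3′.
Stat4, first start: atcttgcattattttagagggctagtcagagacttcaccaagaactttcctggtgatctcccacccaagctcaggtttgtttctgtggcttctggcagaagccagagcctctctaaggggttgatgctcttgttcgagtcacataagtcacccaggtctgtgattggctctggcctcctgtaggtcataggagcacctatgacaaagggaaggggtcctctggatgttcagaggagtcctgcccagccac
Stat4, second start: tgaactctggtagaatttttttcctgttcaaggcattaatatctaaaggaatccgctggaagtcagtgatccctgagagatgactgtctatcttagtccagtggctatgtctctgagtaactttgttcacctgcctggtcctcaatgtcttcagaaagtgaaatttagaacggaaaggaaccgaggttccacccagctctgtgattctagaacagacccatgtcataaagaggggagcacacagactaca
Windows of this kind were found for 8 of the 9 genes, 11 windows in all, and Socs2 has no entry. They were searched on both strands for the palindromic STAT core TTCNNNGAA, its form with a wider spacer, TTCNNNNGAA, and the motif GGAANNGAAA. The first was found in 1 of the 11 windows, that of Socs3, and in 7.02% of all 32851 windows of this length. The others were found in 0 of the 11, and in 5.85% and 2.3% of all windows. Neither Stat4 window held any of these letters. A match describes the sequence and is not a measured binding site.

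Stat3, which signals for Flt3, IL-6 and IL-10, was lower in cDC1 in all 3 genotypes. Its intensities were 1467 and 1432 in WT cDC1, 1547 and 1519 in Flt3 KO cDC1, and 1701 and 1729 in Flt3L KO cDC1. In cDC2 they were 2104 and 2059 in WT, 2065 and 2021 in Flt3 KO, and 2233 and 2150.4 in Flt3L KO. The 3 genotypes did not overlap in cDC1, with Flt3L KO highest and WT lowest, and the knockout groups lay close to WT in cDC2. The log2 difference between the cell types, cDC1 minus cDC2, was -0.52 ± 0.07 (SE) in WT, -0.41 ± 0.07 in Flt3 KO and -0.35 ± 0.07 in Flt3L KO, with limma adjusted p of 4.96e-05, 0.000372 and 0.00131.

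Stat5b and Stat5a encode close relatives that signal for GM-CSF and for the receptors of the common gamma chain. Stat5b, Stat5a and Stat3 lie side by side on mouse chromosome 11; the nearest starts of Stat5b and Stat5a are 9075 bases apart and point away from each other, and those of Stat5a and Stat3 are 79056 bases apart. Stat5b had intensities of 179 and 225 in WT cDC1, 220.02 and 223 in Flt3 KO cDC1, and 219 and 223 in Flt3L KO cDC1. In cDC2 it had 315 and 344 in WT, 342 and 358 in Flt3 KO, and 321 and 289 in Flt3L KO. The WT cDC1 replicates were the farthest apart, and every cDC2 array was above every cDC1 array. Stat5b was 1.64-fold lower in cDC1 in WT, 1.58-fold lower in Flt3 KO and 1.38-fold lower in Flt3L KO (limma adjusted p = 0.000102, 0.000206 and 0.00309). Stat5a ranged from 325.4 to 369.7 on the cDC1 arrays, with a median of 344, and from 419.4 to 471.7 on the cDC2 arrays, with a median of 440.4. Its log2 difference was -0.38 ± 0.08 (SE) in WT, -0.28 ± 0.08 in Flt3 KO and -0.41 ± 0.08 in Flt3L KO (limma adjusted p = 0.00135, 0.0111 and 0.000867). The call in Flt3 KO was lost without Flt3 KO cDC1 replicate 1 (limma adjusted p = 0.0975) and without Flt3 KO cDC2 replicate 2 (limma adjusted p = 0.0966).

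Stat6, the factor of IL-4 and IL-13 receptors, had the narrowest spread over genotypes. It ranged from 1010.5 to 1089 on the cDC1 arrays and from 1299 to 1449 on the cDC2 arrays. It was 1.35-fold lower in cDC1 in WT, 1.28-fold lower in Flt3 KO and 1.27-fold lower in Flt3L KO (limma adjusted p = 0.000407, 0.002 and 0.00237). Within a cell type, its genotypes overlapped with their neighbours in order of level, and in cDC1 its means were 1048 ± 6.17 (SD, n = 2) in WT, 1069 ± 28.2 (SD, n = 2) in Flt3 KO and 1041 ± 42.7 (SD, n = 2) in Flt3L KO.

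Among the inhibitors, Socs2 had the opposite sign to the STAT genes. SOCS2 is best known for restraining growth hormone signalling through STAT5. Its intensities were 311 and 292 in WT cDC1, 440.5 and 449 in Flt3 KO cDC1, and 316 and 404 in Flt3L KO cDC1. In cDC2 they were 242 and 209.6 in WT, 258 and 252 in Flt3 KO, and 290.01 and 317 in Flt3L KO. Flt3 KO cDC1 was highest and WT cDC2 lowest, while Flt3L KO cDC2 overlapped both WT cDC1 and Flt3L KO cDC1. Socs2 was higher in cDC1 by 0.42 ± 0.11 (SE) on the log2 scale in WT and by 0.80 ± 0.11 in Flt3 KO (limma adjusted p = 0.00904 and 7.76e-05). In Flt3L KO the difference was 0.24 ± 0.11 and did not pass (limma adjusted p = 0.125), and averaged over genotypes it was 0.49 ± 0.06 (limma adjusted p = 2.41e-05). The call in WT was lost without WT cDC1 replicate 1 (limma adjusted p = 0.052) and without WT cDC2 replicate 2 (limma adjusted p = 0.102). A second, dimmer probe set for Socs2 ran the same way, with means of 72.6, 91.37 and 77.92 in WT, Flt3 KO and Flt3L KO cDC1 and of 48.35, 56.65 and 71.27 in the same genotypes of cDC2.

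Socs3, an inhibitor of receptors that use the gp130 chain and STAT3, was lower in cDC1 by its brighter probe set. It had intensities of 128 and 137 in WT cDC1, 123 and 124 in Flt3 KO cDC1, and 149 and 135 in Flt3L KO cDC1. In cDC2 it had 164 and 152 in WT, 187 and 160.5 in Flt3 KO, and 234 and 208 in Flt3L KO. Both Flt3L KO cDC2 arrays lay above all 10 others. The log2 difference, cDC1 minus cDC2, was -0.25 ± 0.10 (SE) in WT, which did not pass (limma adjusted p = 0.0518), -0.49 ± 0.10 in Flt3 KO and -0.64 ± 0.10 in Flt3L KO (limma adjusted p = 0.00126 and 0.000166). A second, dimmer probe set did not show this separation. Its means in cDC1 and cDC2 were 92.26 and 83.01 in WT, 89.25 and 92.63 in Flt3 KO, and 95.49 and 90.38 in Flt3L KO. In WT and Flt3L KO it was thus higher in cDC1. With the mean of both probe sets, which includes the brighter one, the log2 difference became -0.27 in Flt3 KO and -0.28 in Flt3L KO. Both were still past the threshold (limma adjusted p = 0.0138 and 0.0117). The size of the difference thus depends on the probe set, and in WT and Flt3L KO so does its sign.

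The Socs3 promoter window is shown because it is the one with a STAT core, in capitals, which begins 154 bases before the start. It is on the minus strand of chromosome 11, at chr11:117969367-117969616 in GRCm38.p6, from RefSeq, and written 5′ to 3′.
Socs3: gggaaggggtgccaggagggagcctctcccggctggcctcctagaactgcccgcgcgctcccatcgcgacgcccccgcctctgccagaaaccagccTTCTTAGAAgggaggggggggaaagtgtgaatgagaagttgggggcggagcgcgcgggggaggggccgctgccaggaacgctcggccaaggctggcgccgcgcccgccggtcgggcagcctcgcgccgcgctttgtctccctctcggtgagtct
The matched letters are TTCTTAGAA, within the pattern TTCNNNGAA.

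Socs1, an inhibitor that binds JAK kinases and restrains interferon signalling, ranged from 65.93 to 79.03 on the cDC1 arrays and from 69.26 to 88.56 on the cDC2 arrays. These ranges overlapped, and no genotype taken alone passed the threshold (limma adjusted p = 0.963, 0.0706 and 0.175 in WT, Flt3 KO and Flt3L KO). Averaged over genotypes, Socs1 was lower in cDC1 by 1.11-fold (log2 difference -0.15, 95% interval -0.28 to -0.02, limma adjusted p = 0.0457), a call that was lost when dim genes were kept (limma adjusted p = 0.0602) and with a trended and robust variance prior (0.0535). Cish, the first known member of the SOCS family and a target of STAT5, was dim, from 40.99 to 52.61 in cDC1 and from 48.04 to 56.22 in cDC2. All of these values lay below the median intensities of the arrays. Its average log2 difference was -0.14, with a 95% interval from -0.27 to -0.01, and did not pass (limma adjusted p = 0.0689). Over the average of the genotypes, 8 of the 9 genes passed, 1 higher and 7 lower in cDC1, where 51.6% of all tested genes passed, 28.1% higher and 23.5% lower.

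**Figure D2:**
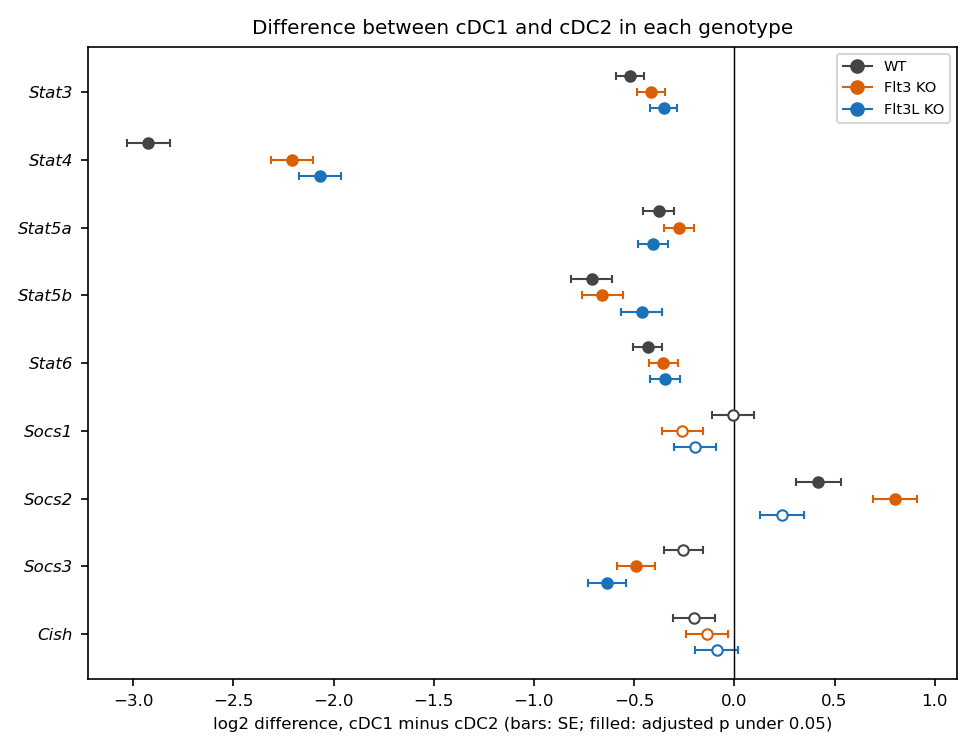
Log2 difference between cDC1 and cDC2 for each gene, cDC1 minus cDC2, in WT, Flt3 KO and Flt3L KO; points are limma estimates, bars their SE, and filled points passed an adjusted p of 0.05. Stat4 lies at -2.92, -2.21 and -2.07, the other STAT genes between -0.71 and -0.28, and Socs2 to the right of 0.

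The knockouts were compared with WT within each cell type, which asks how receptor loss and ligand loss each change the genes. Both knockouts are set against the same WT arrays, so their values are given side by side. Calls were few. Stat4 rose in Flt3L KO cDC1 and Socs3, by its brighter probe set, rose in Flt3L KO cDC2, and no gene of the 9 passed in Flt3 KO. In Flt3 KO cDC1 0 of the 9 passed, with 2 at an unadjusted p under 0.05, where 0.0803% of all genes passed. In Flt3 KO cDC2 0 passed, with 0 at an unadjusted p under 0.05, where 0.107% of all genes passed. In Flt3L KO 1 of the 9 passed in cDC1, where 1.19% of all genes passed and 0.776% were higher, and 1 passed in cDC2, where 1.95% passed and 1.04% were higher. The median log2 change of the 9 was 0.08 in Flt3 KO cDC1, 0.03 in Flt3 KO cDC2, 0.14 in Flt3L KO cDC1 and 0.07 in Flt3L KO cDC2, and that of all genes was -0.00, 0.01, -0.01 and 0.02.

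**Figure D3:**
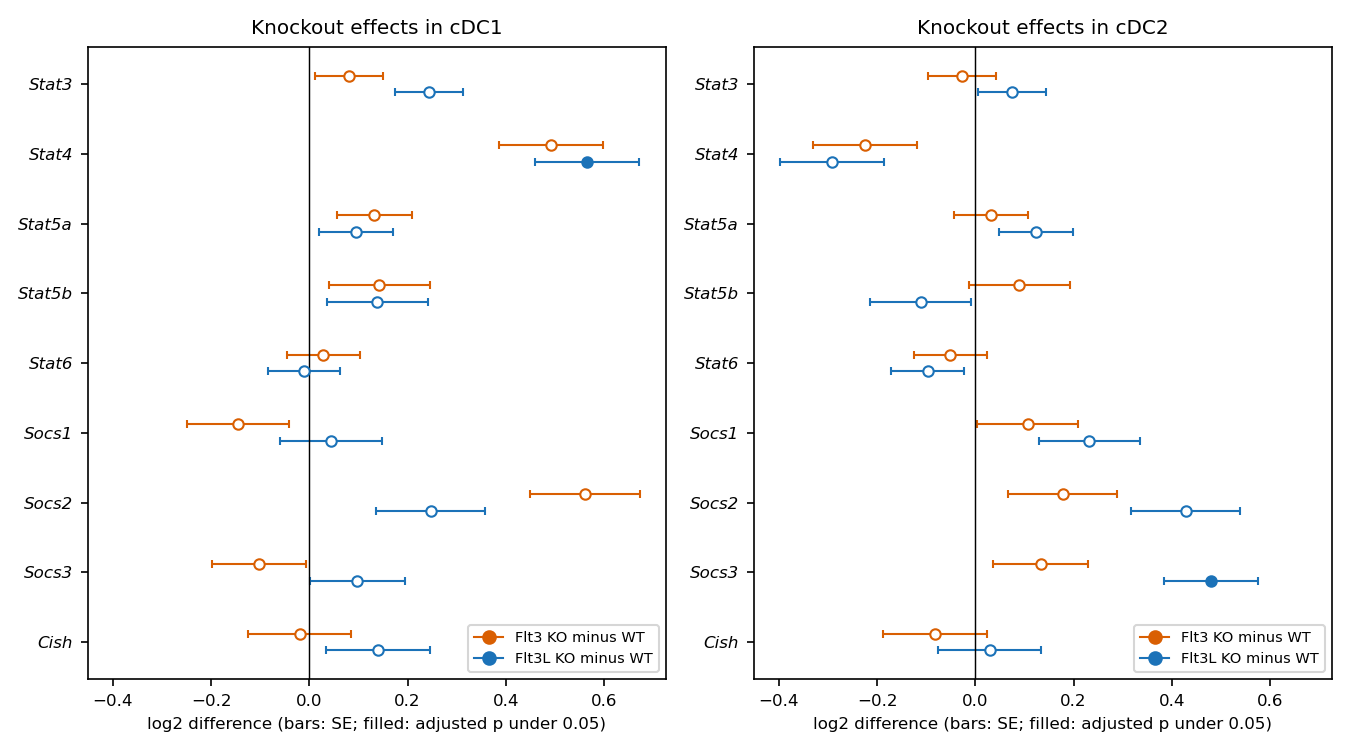
Log2 difference of each knockout from WT for the 9 genes, in cDC1 on the left and cDC2 on the right; points are limma estimates, bars their SE, and filled points passed an adjusted p of 0.05. Only Stat4 in Flt3L KO cDC1 (0.57) and Socs3 in Flt3L KO cDC2 (0.48) are filled, and Stat4 lies right of 0 in cDC1 and left of 0 in cDC2.

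The effect of Flt3L loss on Stat4 differed between the cell types. Its mean in cDC1 was 215.2 ± 4.91 (SD, n = 2) in WT, 302.8 ± 17.1 (SD, n = 2) in Flt3 KO and 318.5 ± 10.5 (SD, n = 2) in Flt3L KO. The rise was 1.48-fold in Flt3L KO (log2 0.57 ± 0.11 SE, limma adjusted p = 0.0282), and in Flt3 KO the difference was 0.49 ± 0.11 without passing (limma adjusted p = 0.155). In cDC2 its mean was 1634 ± 44.7 (SD, n = 2) in WT, 1404 ± 199 (SD, n = 2) in Flt3 KO and 1339 ± 162 (SD, n = 2) in Flt3L KO, and neither difference passed (-0.23 ± 0.11 and -0.29 ± 0.11 on the log2 scale, limma adjusted p = 0.7 and 0.211). The effect of Flt3L loss in cDC2 minus that in cDC1 was -0.86 ± 0.15 (SE) and passed (limma adjusted p = 0.0296), as did 0.495% of all genes, 0.247% with a negative sign like that of Stat4. Stat4 was the 1 gene of the 9 that passed there. The same difference for Flt3 loss was -0.72 ± 0.15 and did not pass (limma adjusted p = 0.269); 0 of all tested genes passed in limma, 1342 had an unadjusted p under 0.05, and without WT cDC1 replicate 2 the number past the threshold was 170.

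The log2 difference of Stat4 between the cell types, cDC1 minus cDC2, was thus -2.92 in WT and -2.07 in Flt3L KO. The rise in Flt3L KO cDC1 was lost without WT cDC1 replicate 1 (limma adjusted p = 0.0675), without either Flt3L KO cDC1 array (0.136 without replicate 1 and 0.134 without replicate 2) and with only the compared arrays in the fit (0.136). The difference in effect was lost as a call without any 1 of 5 arrays: WT cDC2 replicate 1 or 2, Flt3L KO cDC1 replicate 1 or 2, or Flt3L KO cDC2 replicate 1 (limma adjusted p = 0.095, 0.116, 0.0762, 0.092 and 0.101), while its size ranged from -0.98 to -0.73 over all arrays left out in turn. The cDC2 marker list had the same order of genotypes as Stat4 in cDC2, but in cDC1 it was highest in Flt3 KO. Its 9 genes summed to 582 to 600.6 in WT cDC1, 704.7 to 754.7 in Flt3 KO cDC1 and 618.7 to 671.9 in Flt3L KO cDC1, and to 8290 to 8433 in WT cDC2, 8100 to 8185 in Flt3 KO cDC2 and 6933 to 6955 in Flt3L KO cDC2. Of the 9, Cd209a rose in Flt3 KO cDC1 (0.92, limma adjusted p = 0.0165), where 0.0803% of all genes passed. In Flt3L KO, 0 passed in cDC1 and 2 were lower in cDC2, Cd209a and Clec4a4, where 1.19% and 1.95% of all genes passed. For the difference in effect itself, 1 of the 9 passed, Cd209a at -1.19 ± 0.18 (limma adjusted p = 0.0133), where 0.495% of all genes passed. The list median was -0.36. Of the 9 cDC1 markers, Cadm1 and Irf8 rose in Flt3L KO cDC2 (0.56 and 0.52, limma adjusted p = 0.0172 and 0.00787), Tlr3 fell in Flt3L KO cDC1 (-0.69, limma adjusted p = 0.0455), and the list's median for the difference in effect was 0.27. The part of these markers in the Stat4 result was not tested.

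Socs3 rose in cDC2 of Flt3L KO mice by its brighter probe set. The dimmer probe set had means of 83.01 in WT cDC2, 92.63 in Flt3 KO cDC2 and 90.38 in Flt3L KO cDC2. For the brighter one the mean was 158.1 ± 8.04 (SD, n = 2) in WT cDC2, 173.8 ± 18.8 (SD, n = 2) in Flt3 KO cDC2 and 220.8 ± 18.5 (SD, n = 2) in Flt3L KO cDC2. The rise in Flt3L KO was 1.39-fold (log2 0.48 ± 0.10 SE, limma adjusted p = 0.0242), and the difference in Flt3 KO was 0.13 ± 0.10 (limma adjusted p = 0.854). In cDC1 the differences were 0.10 ± 0.10 in Flt3L KO and -0.10 ± 0.10 in Flt3 KO (limma adjusted p = 0.645 and 0.667). The effect of Flt3L loss in cDC2 minus cDC1 was 0.38 ± 0.14 and did not pass (limma adjusted p = 0.238), so the effect is not shown to differ between the cell types. The call in Flt3L KO cDC2 was lost with the mean of both probe sets (0.30, limma adjusted p = 0.0705), without WT cDC2 replicate 1 (0.0976), without WT cDC2 replicate 2 (0.21) and without Flt3L KO cDC2 replicate 1 (0.203).

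Several macrophage markers rose in Flt3L KO cDC2, as Socs3 did. The 9 genes of the macrophage list summed to 1607 to 1637 in WT cDC2, 1837 to 1859 in Flt3 KO cDC2 and 2394 to 2802 in Flt3L KO cDC2, against 563.9 to 639.9 over the 6 cDC1 arrays. Adgre1 alone had means of 969.2, 823.1 and 609 in the same cDC2 groups, and of 39.67 to 41.53 in the cDC1 groups. In WT, most of the gap in the sum between the cell types was thus Adgre1. In Flt3L KO cDC2, 5 of the 8 tested members rose and 1 fell, where 1.95% of all genes passed and 1.04% were higher. The complement chain genes C1qa and C1qb were 4.60-fold and 3.96-fold higher (limma adjusted p = 1.7e-05 and 0.000178). C1qc, the adhesion gene Vcam1 and the engulfment receptor gene Mertk were 3.10-fold, 2.27-fold and 2.0-fold higher (limma adjusted p = 0.00287, 1.7e-05 and 8.17e-05). Adgre1, which encodes F4/80, was 1.59-fold lower (limma adjusted p = 0.00479). In Flt3 KO cDC2, 2 of the 8 rose and 0 fell, where 0.107% of all genes passed. These were C1qa, 2.19-fold higher, and Vcam1, 1.43-fold higher (limma adjusted p = 0.0107 and 0.0321). Socs3 did not pass there (limma adjusted p = 0.854). Spic, the transcription factor of red pulp macrophages, had means of 140.6 in WT cDC2 and 253.1 in Flt3L KO cDC2 without passing (limma adjusted p = 0.0758). Cd5l and Cd163, also known from these macrophages, had intensities of 17.3 to 29.1 and 22.8 to 31.6 over the 12 arrays, close to the lower quartile of an array. Their part in the Socs3 result was not tested.

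**Figure D4:**
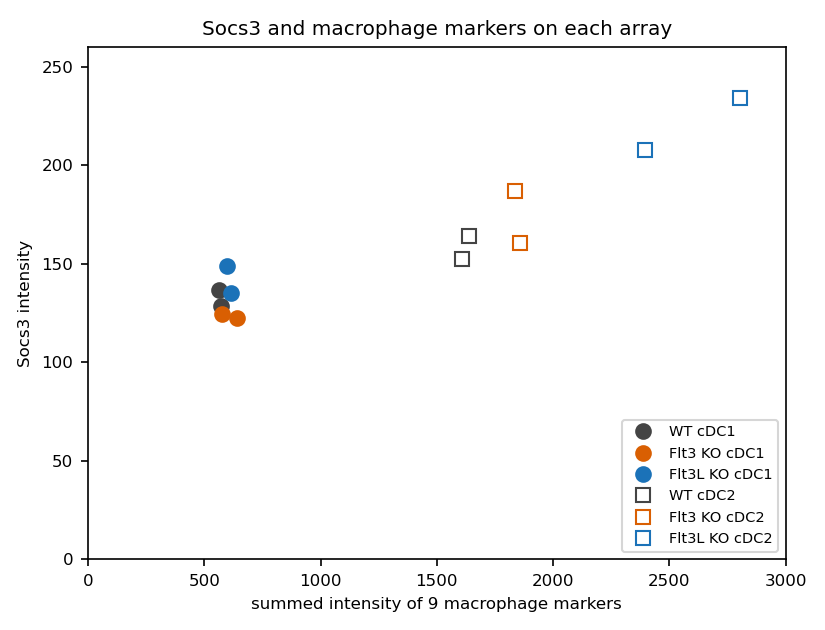
Intensity of the brighter Socs3 probe set against the summed intensity of 9 macrophage markers on each of the 12 arrays, both on a linear scale from 0. Circles are cDC1 and squares cDC2. The cDC1 arrays sit at sums of 563.9 to 639.9, and the Flt3L KO cDC2 arrays are highest on both axes, with Socs3 at 208 and 234. The sum includes Adgre1, with means of 969.2 in WT cDC2 and 41.53 in WT cDC1.

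Socs2 was not called in either cell type taken alone. In cDC1 it differed from WT by 0.56 ± 0.11 (SE) on the log2 scale in Flt3 KO and by 0.25 ± 0.11 in Flt3L KO (limma adjusted p = 0.117 and 0.281). In cDC2 the values were 0.18 ± 0.11 in Flt3 KO and 0.43 ± 0.11 in Flt3L KO (limma adjusted p = 0.822 and 0.0757). Both knockouts were thus above WT in both cell types, the receptor knockout by more in cDC1 and the ligand knockout by more in cDC2. Within each cell type, the knockouts did not differ past the threshold. Flt3L KO minus Flt3 KO was -0.31 ± 0.11 in cDC1 and 0.25 ± 0.11 in cDC2 (limma adjusted p = 0.196 and 0.366). Whether that difference itself differed between the cell types was not tested. Among B cell markers, Ms4a1 had means of 101.2 in WT cDC1 and 149.2 in Flt3 KO cDC1 without passing (limma adjusted p = 0.174), and the other 4 genes with a value were slightly lower in Flt3 KO cDC1. The median log2 change of the 4 tested B cell genes was -0.06. Over the alternative fits, the Flt3 KO difference in cDC1 ranged from 0.45 to 0.61 for Socs2 and from 0.43 to 0.55 for Stat4. These ranges include the fit without WT cDC1 replicate 2, in which WT cDC1 rests on replicate 1, the array that stood apart.

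Averaged over the cell types, which counts the cDC1 and cDC2 arrays as independent, Socs2 and Socs3 rose in Flt3L KO, by 0.34 ± 0.08 and 0.29 ± 0.07 (SE) on the log2 scale (limma adjusted p = 0.0392 and 0.041). These were 2 of the 9 genes, where 3.0% of all genes passed and 1.67% were higher. Neither call was firm. Leaving out 1 array at a time, Socs2 lost its call without WT cDC2 replicate 1 or 2, WT cDC1 replicate 2, Flt3L KO cDC1 replicate 2, and Flt3L KO cDC2 replicate 1 or 2 (limma adjusted p from 0.0585 to 0.165). Socs3 lost it without WT cDC1 replicate 1, WT cDC2 replicate 1 or 2, Flt3L KO cDC1 replicate 1 or 2, and Flt3L KO cDC2 replicate 1 (limma adjusted p from 0.061 to 0.16). With the replicate number as a block Socs2 was lost too (limma adjusted p = 0.0556). In Flt3 KO the average change was 0.37 ± 0.08 for Socs2 and 0.01 ± 0.07 for Socs3 (limma adjusted p = 0.111 and 0.957), and 0 of the 9 genes passed, with 1 at an unadjusted p under 0.05, against 0.254% of all genes.

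The other members did not pass in any comparison of a knockout with WT. Stat3 differed by 0.24 ± 0.07 (SE) on the log2 scale in Flt3L KO cDC1 (limma adjusted p = 0.106) and by 0.08 ± 0.07, -0.03 ± 0.07 and 0.07 ± 0.07 in Flt3 KO cDC1, Flt3 KO cDC2 and Flt3L KO cDC2. Stat6 stayed within 0.10 log2 units of WT in all 4 comparisons, and the 95% intervals of its differences reached from -0.26 to 0.19. For Stat5a the differences were 0.13, 0.10, 0.03 and 0.12 in Flt3 KO cDC1, Flt3L KO cDC1, Flt3 KO cDC2 and Flt3L KO cDC2, and for Stat5b 0.14, 0.14, 0.09 and -0.11, each with an SE of 0.08 or 0.10. Socs1 and Cish lay between -0.15 and 0.23. A p that misses the threshold does not show that these levels were equal. Set against each other, Flt3L KO and Flt3 KO gave 0 calls among the 9 genes in cDC1, with 2 at an unadjusted p under 0.05 (0.883% of all genes passed), and 0 in cDC2, again with 2 (0.930%). The largest difference between the knockouts was that of Socs3 in cDC2, 0.35 ± 0.10 (limma adjusted p = 0.131).

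The rest of the pathway also differed between the cell types. A list of 82 genes, in 5 groups, had 71 members tested, and averaged over genotypes 20 were higher and 38 lower in cDC1, where 28.1% of all tested genes were higher and 23.5% lower. The median log2 difference was -0.17 against 0.03 over all genes. Of the JAK kinases, Tyk2, a kinase of interferon and IL-12 receptors, was 1.94-fold higher in cDC1 (log2 0.95 ± 0.05 SE, limma adjusted p = 1.9e-09). Jak2 and Jak1, which pair with many receptors, were lower (-0.47 ± 0.05 and -0.20 ± 0.04). These were 3 of 4 listed kinases. Among 5 tested genes of other STAT and SOCS members, Socs5 and Socs7 were higher (0.42 and 0.26), Stat2, the partner of interferon signalling, was lower (-0.32), and Socs4 and Socs6 did not pass (-0.03 and -0.10).

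Of 28 tested receptors that couple to STATs, 4 were higher and 18 lower in cDC1, beside 28.1% and 23.5% of all genes, with a median of -0.32. Il21r, the IL-21 receptor, was 6.47-fold lower (limma adjusted p = 1.29e-13), and Csf3r, the G-CSF receptor, 3.74-fold lower (limma adjusted p = 2.6e-11). Il12rb2, the signalling chain of the IL-12 receptor that acts through STAT4, was 2.22-fold lower (log2 -1.15 ± 0.07 SE). Il4ra, the IL-4 receptor chain that acts through STAT6, was 2.18-fold lower; it was not among the 4 largest differences of the list and is named for its link to Stat6. Il15ra, which presents IL-15 to neighbouring cells, was 2.47-fold higher in cDC1 (limma adjusted p = 1.25e-08). Among 14 negative regulators other than SOCS proteins, 7 were higher and 6 lower (median 0.04), to be read against the same shares of all genes. The phosphatase genes Ptpn1 and Ptpn6 were 2.16-fold and 1.90-fold lower, while Ubash3b and the ubiquitin ligase gene Cblb were 5.07-fold and 1.78-fold higher. Of 21 tested genes that STATs are known to regulate, 6 were higher and 11 lower (median -0.14), again beside 28.1% and 23.5% of all genes. Id2 and Bcl2l1, a regulator of cDC1 development and a survival gene, were 2.34-fold and 2.33-fold higher, and Gadd45g and the cytokine gene Osm were 2.38-fold and 2.23-fold lower.

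**Figure D5:**
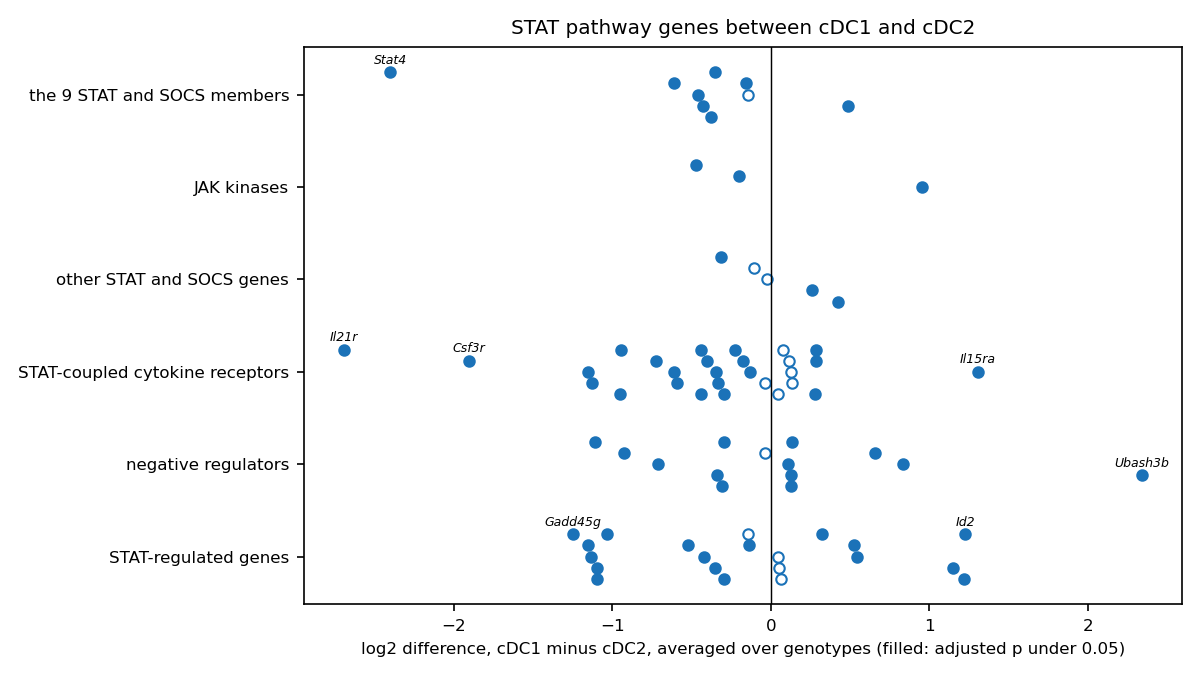
Log2 difference between cDC1 and cDC2 averaged over genotypes, cDC1 minus cDC2, for the 9 genes and for 5 groups of pathway genes; each point is a gene, filled where it passed an adjusted p of 0.05, and points are offset vertically only to keep them apart. Stat4 at -2.40, Il21r at -2.69, Csf3r at -1.90 and Ubash3b at 2.34 lie farthest from 0.

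Few of these pathway genes changed in the knockouts. In Flt3 KO cDC1 0 of 71 passed, with 0.0803% of all genes passing. In Flt3 KO cDC2, where 0.107% of all genes passed, Osm rose by 0.54 ± 0.08 (SE) on the log2 scale (limma adjusted p = 0.0321). In Flt3L KO cDC1 4 of 71 rose and 0 fell, where 1.19% of all genes passed and 0.776% were higher: Il21r by 0.71 ± 0.09, Il4ra by 0.55 ± 0.07, Pias3 by 0.44 ± 0.08 and Socs6 by 0.37 ± 0.08 (limma adjusted p = 0.00312, 0.00426, 0.0284 and 0.0494). Averaged over genotypes, Il21r and Il4ra were, like Stat4, lower in cDC1 than in cDC2, while Pias3 was higher in cDC1 (0.14) and Socs6 did not pass (-0.10). In Flt3L KO cDC2, where 1.95% of all genes passed, 3 rose, Csf3r by 0.68 ± 0.11, Osm by 0.55 ± 0.08 and Bcl2l1 by 0.43 ± 0.09, and Bcl6, a repressor opposed to STAT5 at shared targets, fell by 0.34 ± 0.08 (limma adjusted p = 0.00846, 0.00479, 0.0234 and 0.0472). Il21r was the 1 of 71 genes for which the effect of Flt3L loss differed between the cell types (-0.72 ± 0.13, cDC2 minus cDC1, limma adjusted p = 0.0306), the same sign as Stat4. Averaged over the cell types in Flt3L KO, 5 of 71 rose and 1 fell, where 3.0% of all genes passed and 1.67% were higher, the last being Myc (-0.37 ± 0.08, limma adjusted p = 0.0227). Between the knockouts, Il2rb was higher in Flt3L KO than in Flt3 KO cDC1 by 0.53 ± 0.11, and Il12rb2 and Bcl2l1 were higher in cDC2 by 0.61 ± 0.11 and 0.41 ± 0.09 (limma adjusted p = 0.043, 0.0288 and 0.0443).

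For each gene, the tested genes with the most similar pattern over the 12 arrays were found by Pearson's correlation of log2 values. The 12 points share the step between the cell types, which by itself gives high values, and array effects. Stat4 was closest to Plxnc1 and Lin54 (r = 0.997 and 0.995), and Stat3 to Slc15a4 and Def6 (r = 0.99 and 0.99). Stat6 was closest to Crybg1 and Pgap1 (r = 0.99 and 0.99), Stat5a to Zfp592 and Tspan14 (r = 0.98 and 0.98) and Stat5b to Zfp869 and Lin7c (r = 0.99 and 0.99). Socs3 was closest to C1qb, a member of the macrophage list, and Cfb (r = 0.98 and 0.98), and Socs2 to Nudt17 and Tmub1 (r = 0.95 and 0.92). Socs1 was closest to Clmp and Srd5a3 (r = 0.93 and 0.91) and Cish to Ddx11 and Ccdc6 (r = 0.86 and 0.85). After the mean of each cell type was subtracted, which leaves the genotypes and the replicates, Socs3 was closest to Lgals3bp and again C1qb (r = 0.95 and 0.94), and Socs2 to Pcgf5 and again Nudt17 (r = 0.94 and 0.92). Stat5a was then closest to Il15ra and again Zfp592 (r = 0.92 and 0.91), Stat4 to Fancm and Rgp1 (r = 0.92 and 0.92), and Stat3 to Fam120a and Tent5a (r = 0.95 and 0.95). Stat5b was closest to Armh3 and Adnp2 (r = 0.96 and 0.96), Stat6 to Ulk2 and Zcchc9 (r = 0.88 and 0.88), Socs1 to Snapc2 and Sbpl (r = 0.97 and 0.94) and Cish to Tmem170b and Iqcd (r = 0.89 and 0.88). With 14953 genes to choose from and 12 arrays, such values describe these arrays only.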

How the data were processed

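RNA of 12 samples was labelled with the Ambion WT Expression and GeneChip WT Terminal Labeling kits, per the labels' protocols. The deposited values are linear intensities, 1 per probe set and array, that the authors had already processed. Their summarisation and normalization were not given in the sources used here. Of 30177 probe sets, 21789 carried 1 gene symbol, and the one with the highest mean was kept per gene. The dimmest genes by mean log2 intensity, a share of 0.25, were left out, with Flt3 and Flt3l kept. Log2 intensities were fitted in limma 3.58.1 under R 4.3.3 with 1 mean per group and 6 residual degrees of freedom, in 14 comparisons. Benjamini-Hochberg adjustment ran over 14953 genes within each comparison, with 0.05 as the threshold for a call. Intervals of 95% use the moderated variance.

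The members, the pathway lists and the marker lists were chosen with earlier results of these data known. Named besides the 9 members are, in each comparison, up to 4 called genes of each pathway list with the largest change, the 2 genes most correlated with each member, Flt3, and up to 2 called genes of a marker list with the largest change. Adgre1, C1qc, Vcam1, Mertk, Spic, Cd5l, Cd163, Ms4a1, Cd3e, Cd3d, Cd3g, Ncr1, Il4ra and Pias3 for the average of genotypes, Socs4 and Socs6 were named after their values were seen. Promoter sequences are from the RefSeq table of GRCm38.p6. On simulated data for Flt3L KO against WT in cDC2, run on 14953 genes, 65.7% of 67 genes changed by 0.5 on the log2 scale were recovered, with 6 false calls among 182. For the effect of Flt3L loss in cDC2 minus cDC1, likewise on 14953 genes, 40.3% of 67 genes changed by 0.5 and 88.1% of 67 changed by 1 were recovered, with 8 false calls among 159. The simulated arrays were independent and had the same spread in every group. These rates therefore do not cover an array that stands apart, such as replicate 1 of WT cDC1.

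Equal replicate numbers were checked for pairing. The correlations of their deviations from the group means lay between -0.199 and 0.172 over pairs of groups. Between cDC1 and cDC2 of the same genotype they were 0.159 in WT, 0.0885 in Flt3 KO and 0.146 in Flt3L KO. The labels do not say that a number marks shared animals, so no block was fitted in the main model. The block used as an alternative is shared by all genotypes, so pairing within a genotype was not tested. As alternatives, each array was left out in turn, the replicate number was fitted as a block, only the compared arrays were fitted, probe sets were averaged, values were quantile normalized, the filter was dropped or set to 0.5, and the variance prior was made trended and robust.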

Additional observations from a re-analysis of the deposited data

Results flagged for a closer look

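For Stat4, the change on loss of Flt3L differed between the cell types: the effect in cDC2 minus the effect in cDC1 was -0.86 ± 0.15 (SE) on the log2 scale, by the interaction contrast in limma (adjusted p = 0.0296). Both cDC1 arrays of Flt3L KO lay above both WT arrays and both cDC2 arrays lay below. It was the 1 gene of the 9 for which a knockout effect differed between cDC1 and cDC2 past the threshold. The call was lost without any 1 of 5 arrays. For loss of Flt3 the same difference was -0.72 ± 0.15 (SE) and did not pass.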

How the results depend on the processing

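Over the 9 genes, 51 results were recomputed under 586 alternatives: 541 kept their side of the threshold, 39 lost a call and 6 gained one. Signs were compared only where the main or the alternative fit passed, and there 0 reversed. Results that passed in neither could change sign, as for Socs3 in Flt3 KO averaged over cell types (-0.04 to 0.07). Between the cell types, counts of called genes stayed within 1.5 times of the reported ones under every alternative run. In the knockouts, where 0 to 2 genes were called, single genes decide. In Flt3 KO cDC1 the trended and robust prior called 2 genes, Stat4 and Socs2 (limma adjusted p = 0.0364 and 0.0293), in place of 0. In Flt3L KO cDC1 it called 2 in place of 1, and a fit of only the arrays compared called 0. In Flt3L KO cDC2 it called 2, the second being Socs2 (limma adjusted p = 0.0295), and the mean of the probe sets called 0. Averaged over cell types, it called 1 in Flt3 KO in place of 0. In Flt3L KO, in place of 2, quantile normalization and the replicate block each called 1, and no filter, the mean of the probe sets and only the arrays compared each called 0. The cause of these differences was not tested.

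Leaving out 1 array at a time gave counts of 5 to 6 in WT, 6 to 7 in Flt3 KO, 6 to 7 in Flt3L KO and 7 to 8 on average between the cell types. Against WT it gave 0 to 2 in Flt3 KO cDC1, 0 in Flt3 KO cDC2, 0 to 1 in Flt3L KO cDC1, 0 to 1 in Flt3L KO cDC2, 0 in Flt3 KO on average and 0 to 1 in Flt3L KO on average. It gave 0 between the knockouts, and for the difference of effects 0 for Flt3 and 0 to 1 for Flt3L. Without WT cDC1 replicate 2, calls over all genes in Flt3 KO cDC1 went from 12 to 1132.

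With the replicate number as a block, 7, 8, 6 and 8 genes were called between the cell types in WT, Flt3 KO, Flt3L KO and on average, and 118 in place of 178 of all genes in Flt3L KO cDC1. Crossed replicate numbers as a block, chosen after seeing the data, called 0, 0 and 1 of the 9 genes in Flt3 KO cDC1, Flt3 KO cDC2 and Flt3L KO cDC1. No measure of background was used here, so how far signal over background limits these values was not tested.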
